A study of Mus musculus with 12 samples.

Results

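The immunity-related GTPases are interferon-inducible enzymes of cell-autonomous immunity, and 6 of their genes, Irgm1, Irgm2, Igtp, Iigp1, Tgtp1 and Tgtp2, were followed here in dendritic cells grown from mouse bone marrow (BMDCs). The genes were found by their symbols among the 55335 genes of each expression table, every symbol occurring once in all 12 libraries. All 6 were among the 14008 genes that passed the filter on low counts and were tested.

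The BMDCs came from C57BL/6 mice, were cultured for 6 days with GM-CSF and formed 4 groups of 3 replicates. By the paper's methods, floating cells were collected and those carrying CD11c were kept with magnetic beads. WT cultures carried CreER, a tamoxifen-inducible Cre recombinase expressed from the Rosa26 locus. KO cultures carried CreER;CTCF fl/fl and received 4-OHT on the first day of culture, which deletes both loxP-flanked copies of the gene for CTCF, the DNA-binding protein that anchors chromatin loops and domain boundaries. WTL and KOL were WT and KO cultures after LPS at 100 ng/ml for 3 h. Mice of both sexes were used. Whether 4-OHT was also added to WT cultures is not clear from the sources, and where it was not, the drug and the deletion cannot be told apart.

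Immunity-related GTPases fall into 2 classes. Irgm1, Irgm2 and Igtp (also called Irgm3) are regulatory members that sit on membranes of the cell itself, such as the Golgi, endoplasmic reticulum and lipid droplets, and keep the other members in their inactive form there. Iigp1 and the near-identical pair Tgtp1 and Tgtp2 are effector members, which load onto the vacuoles of parasites and bacteria such as Toxoplasma and Chlamydia and break them open. Interferon-γ and type I interferon switch the genes on through their receptors, and LPS reaches the same pathway by way of interferon-β made by the stimulated cells.

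Irgm1 lies at chr11:48861968-48871683 on the minus strand (mm10, GENCODE M21). Tgtp1 at chr11:48985327-48994172 and Tgtp2 at chr11:49057194-49064206 follow it on the same strand. Igtp at chr11:58199556-58207591 and Irgm2 at chr11:58199618-58222782 are on the plus strand, and the annotated body of Irgm2 spans nearly all of Igtp. All are protein-coding.

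The promoters of the members are shown because 4 of the 5 found in the RefSeq table (GRCm38.p6) carried the same pair of motifs. These were TTCNNNGAA, the GAS element of genes that respond to interferon-γ, and GAAANNGAA, the core of the interferon-stimulated response element (ISRE) that IRF factors bind. Both strands were searched in the 300 bases from 250 before to 50 after each start site, and capitals mark the matches in these excerpts, each read 5′ to 3′ on the strand of its gene.
Irgm2: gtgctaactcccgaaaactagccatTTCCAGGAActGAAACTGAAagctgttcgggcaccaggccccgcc
Igtp: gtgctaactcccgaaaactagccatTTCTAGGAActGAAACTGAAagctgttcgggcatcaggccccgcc
Tgtp1: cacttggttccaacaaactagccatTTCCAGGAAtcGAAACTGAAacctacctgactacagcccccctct
Tgtp2: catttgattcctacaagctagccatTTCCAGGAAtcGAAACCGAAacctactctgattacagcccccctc
Irgm1: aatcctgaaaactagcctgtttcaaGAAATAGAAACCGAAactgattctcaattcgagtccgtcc

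The excerpts cover chr11:58214877-58214946 (Irgm2, plus strand), chr11:58199486-58199555 (Igtp, plus), chr11:48992290-48992359 (Tgtp1, minus), chr11:49064249-49064318 (Tgtp2, minus) and chr11:48871411-48871475 (Irgm1, minus). In Irgm2, Igtp, Tgtp1 and Tgtp2 the ISRE core followed the GAS after exactly 2 bases. The GAS began 75, 45, 88 and 81 bases before the start site, in that order. Irgm1 held no GAS match in its window but held overlapping ISRE cores beginning 30 and 24 bases before its start. Of 32851 mouse promoters of this length, 8.3% held the GAS, 8.6% the ISRE core and 1.07% both. The longest run of identical bases was 61 between the promoters of Irgm2 and Igtp, 27 between those of Tgtp1 and Tgtp2, and 20 between those of Irgm2 and Tgtp1. The RefSeq start of Irgm2 lies inside the gene as GENCODE draws it, since 1 GENCODE transcript of Irgm2 begins at the start of Igtp. Of the relatives Ifi47 and Gm12250, searched in the same way, Ifi47 held neither motif and Gm12250 held 1 GAS and 2 ISRE cores. Iigp1 was not in the promoter table.

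Reads of some members cannot be assigned to 1 gene with certainty. The main transcripts of Tgtp1 (2823 bases) and Tgtp2 (2810 bases) were identical at 99.8% of 2810 aligned bases, with a longest shared run of 1040. Of all windows of 100 bases in Tgtp1 transcripts, 73.1% also occurred in another gene, and for Tgtp2 it was 76.8%. Igtp and Irgm2 shared much less, 5.2% of the windows of Igtp and 3.0% of those of Irgm2, whereas Irgm1 and Iigp1 shared none. The estimated counts followed this division, being whole in all libraries for Irgm1 and Iigp1 and not whole in 11 or 12 of 12 libraries for the other members. Tgtp1 is also overlapped on its own strand by Gm12185, and both Tgtp genes lie within Olfr56 on the opposite strand. Values of Tgtp1 and Tgtp2 taken singly are therefore uncertain, and their summed counts are given beside the single ones.

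Total estimated counts were 12769773 to 16586334 per library. Genes of ribosomal RNA took 5.17% of the counts in WTL replicate 2 and at most 1.18% in the others. WTL replicate 1 and KOL replicate 2 stood apart from the other libraries of their groups. In them 1.65% and 3.27% of 10640 expressed genes were more than 1.5 times above both other replicates, against at most 0.404% in any other library. Normalised counts of Ctcf were 975 to 1051 in WT, 745 to 886 in WTL, 516 to 570 in KO and 526 to 563 in KOL BMDCs. Ctcf fell 1.83-fold in KO against WT and 1.51-fold in KOL against WTL (edgeR's quasi-likelihood test, adjusted p = 3.9e-07 and 2.4e-05). The gene-level count covers all exons, so it does not measure the deleted part alone.

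LPS raised all 6 members in WT BMDCs. Tests were made with edgeR's quasi-likelihood test on all 12 libraries, with Benjamini-Hochberg adjustment over all genes, an adjusted p threshold of 0.05 and a fold cutoff of 2 for LPS. By the same rule 12.6% of all genes tested rose and 9.99% fell. Higher genes made up 55.8% of these calls but 28.0% on the log2(TPM + 1) scale, on which the median of all genes was lower by 0.49. The median log2 fold change of the members was 4.22, and that of all genes tested was −0.02.

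Among the regulatory members, normalised counts of Irgm1 were 1059, 1125 and 1178 in the 3 WT libraries and 13008, 11213 and 11083 in the WTL libraries. Irgm1, which in macrophages also directs autophagy and mitochondrial upkeep, thus rose 10.5-fold (log2 3.39 ± 0.09 SE, edgeR adjusted p = 5.7e-13) with no overlap between the groups. Irgm2 was at 383, 377 and 380 normalised counts in WT and at 4712, 4179 and 4135 in WTL libraries. Its WT replicates lay closer together than those of any other member, and it rose 11.4-fold (log2 3.51 ± 0.09, edgeR adjusted p = 3.4e-13). Igtp, which is found on the endoplasmic reticulum and lipid droplets, was at 222, 240 and 205 normalised counts in WT and 3337, 2948 and 2826 in WTL libraries. It rose 13.6-fold (log2 3.77 ± 0.10, edgeR adjusted p = 7.5e-13), so that the regulatory members had similar folds.

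The effector members started lower and had larger folds. Normalised counts of Iigp1, which loads early onto the parasite vacuole, were 6.43, 8.39 and 10.4 in WT and 374, 238 and 222 in WTL libraries. Iigp1 rose 32.3-fold (log2 5.01 ± 0.27, edgeR adjusted p = 7.3e-10), with WTL replicate 1 well above the other stimulated libraries. Tgtp1 was at 23.9, 17.6 and 30.3 normalised counts in WT and 2619, 2315 and 2414 in WTL libraries. That 102-fold rise (log2 6.67 ± 0.19, edgeR adjusted p = 9.4e-13) placed it 15th from the top among the 14008 genes by fold change. Tgtp2 was at 140, 126 and 141 normalised counts in WT and 4215, 3050 and 3077 in WTL libraries, a 25.4-fold rise (log2 4.67 ± 0.16, edgeR adjusted p = 5.6e-12). The pair counted as 1 gene rose from 164, 143 and 171 to 6834, 5365 and 5491 normalised counts, a log2 change of 5.21 ± 0.13 (edgeR adjusted p = 3.2e-13).

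**Figure D1:**
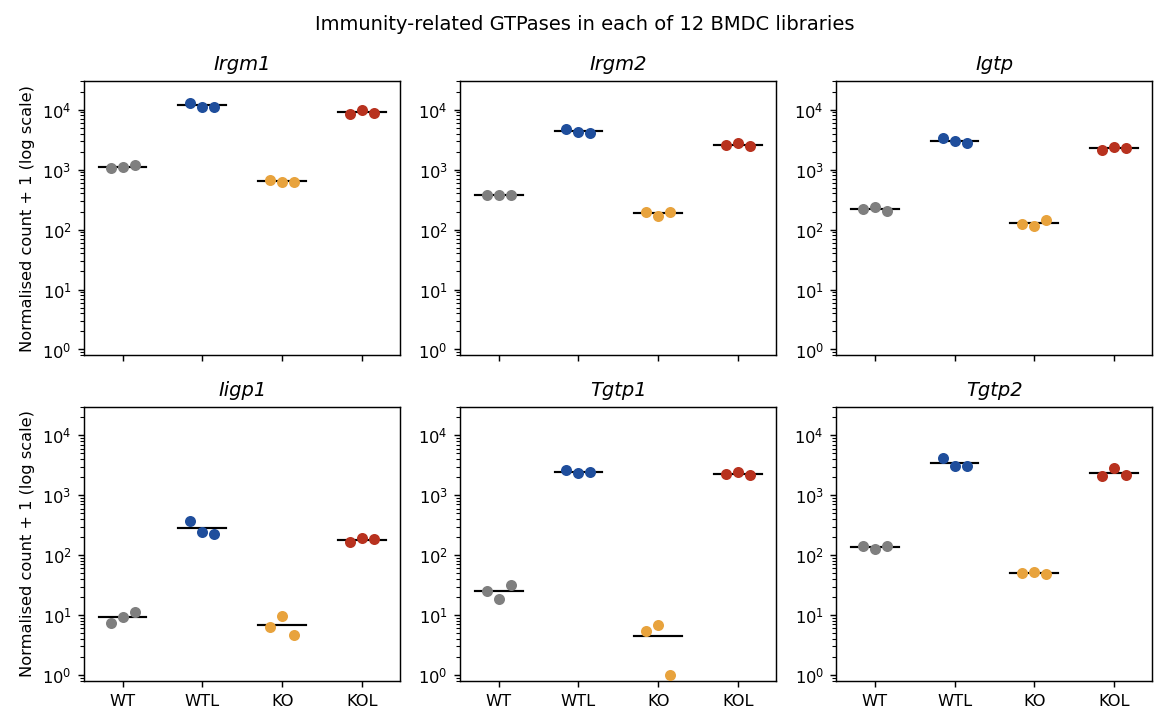
Normalised counts plus 1 (log scale) of the 6 members in each of the 12 libraries, 1 point per library, with lines at the mean of each group of 3. LPS moved every member far above its unstimulated level in both genotypes, KO points lie below WT points for all members but Iigp1, and the point at the foot of the Tgtp1 panel is KO replicate 3, at 0.

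Levels can be compared between genes only per length, in TPM, a share of all transcripts scaled to the same sum in every library. Irgm1 was the highest member in every group, at a mean of 56.2 TPM in WT, 409 in WTL and 311 in KOL BMDCs, and at 29.3 to 31.2 in KO libraries. In WT BMDCs Igtp (12.1 TPM) and Irgm2 (11.2 TPM) came next with overlapping ranges, then Tgtp2 (5.02), Tgtp1 (1.08) and Iigp1 (0.327). In WTL BMDCs the mean TPM was 114 for Igtp, 91.4 for Tgtp2 and 88.8 for Irgm2, neighbours whose ranges overlapped, then 63.8 for Tgtp1 and 7.19 for Iigp1. Stimulated WT BMDCs therefore carried Tgtp2 transcripts at levels like those of Irgm2 and Igtp, with Tgtp1 below all 3 without overlap and Iigp1 far behind. Of the summed TPM of the 6 members, Irgm1 made up 65.4% in WT and 52.8% in WTL BMDCs, while Tgtp1 went from 1.26% to 8.27% and Tgtp2 from 5.84% to 11.7%. In KO BMDCs the order was Irgm1, Igtp (6.45 TPM), Irgm2 (5.11), Tgtp2 (2.96), and then Iigp1 (0.193) and Tgtp1 (0.120), whose ranges overlapped. In KOL BMDCs Igtp was at 84.5 TPM, Tgtp2 at 61.9, Tgtp1 at 58.4 and Irgm2 at 52.1, with overlap between Tgtp2 and Tgtp1 and between Tgtp1 and Irgm2, and Iigp1 was at 4.38. TPM of the Tgtp pair also depends on the effective length given to each gene, which was 1177 to 1869 bases for Tgtp2 in KO and 2571 to 2593 in WT libraries.

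Without LPS, CTCF-deleted BMDCs had less of 5 of the 6 members. The fold cutoff was 1.3 for this comparison, and 17.2% of all genes tested fell and 17.3% rose by the same rule. Higher genes made up 50.2% of the calls, and 38.2% on the log2(TPM + 1) scale. The median log2 fold change was −0.92 over the members and −0.01 over all genes. In bulk RNA, fewer cells of a type and less RNA per cell cannot be told apart.

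Irgm1 was at 672, 621 and 624 normalised counts in KO libraries, 57.0% of its WT mean. All 3 were below the lowest WT library, and the fall was 1.75-fold (log2 −0.81 ± 0.09, edgeR adjusted p = 2.9e-06). Irgm2 was at 196, 169 and 193 normalised counts in KO libraries, 48.9% of WT, with a log2 change of −1.03 ± 0.09 (edgeR adjusted p = 3.9e-07). Igtp was at 125, 113 and 144 normalised counts in KO libraries, 57.2% of WT, with a log2 change of −0.80 ± 0.11 (edgeR adjusted p = 3.5e-05). The regulatory members thus stayed at 48.9% to 57.2% of the WT level, with no overlap between the groups for any of them.

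On counts the Tgtp genes fell further. On the log2 TPM scale Tgtp1 also fell furthest with 0.1 added but not with 1 added, and Tgtp2 did not fall further with either. Tgtp2 was at 49.3, 50.9 and 48.2 normalised counts in KO libraries, 36.5% of WT, a 2.73-fold fall (log2 −1.45 ± 0.19, edgeR adjusted p = 2.1e-05). Tgtp1 was at 4.49, 5.76 and 0 normalised counts in KO libraries, 14.3% of WT, a 6.81-fold fall (log2 −2.77 ± 0.43, edgeR adjusted p = 0.0001). With limma on log2(TPM + 1) the log2 change was −0.61 for Tgtp2 (adjusted p = 0.017) and −0.88 for Tgtp1 (adjusted p = 0.0006), against −0.89 for Irgm1 and −0.82 for Igtp, with Irgm2 further below WT than these 4. The 1 added is about the level of Tgtp1 itself in WT (1.08 TPM). On log2(TPM + 0.1) limma gave −2.52 for Tgtp1 (adjusted p = 0.00073) and −0.76 for Tgtp2. Irgm1, Irgm2 and Igtp were at −0.91, −1.12 and −0.90 there. The normalised counts of Tgtp1 stand for about 5, 6 and 0 reads, assigned between copies by estimation. The pair counted as 1 gene was at 53.8, 56.6 and 48.2 normalised counts in KO libraries and fell by 1.59 ± 0.15 on the log2 scale (edgeR adjusted p = 8.1e-07), which does not depend on that assignment. Iigp1 was at 5.38, 8.64 and 3.71 normalised counts in KO libraries against 6.43 to 10.4 in WT. These groups overlapped, and a difference was not detectable at this depth (log2 −0.51 ± 0.48, edgeR adjusted p = 0.42).

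After LPS the log2 difference between genotypes was smaller for every member but Iigp1. That change was called only for Irgm1, Tgtp1 and Tgtp2, by the interaction given below. The fold cutoff also differed from that used without LPS, and with no cutoff 5 members were lower in either comparison. With a fold cutoff of 1.5, KOL BMDCs had less Irgm2 and Iigp1 than WTL BMDCs, and no member was higher, also at an unadjusted p below 0.05 and by DESeq2, while 12.5% of all genes tested fell and 12.5% rose. The median log2 fold change of the members was −0.47, and that of all genes was −0.03. Irgm2 was at 2536, 2806 and 2447 normalised counts in KOL libraries, 59.8% of WTL, with no overlap (log2 −0.74 ± 0.08, edgeR adjusted p = 2.8e-06). Iigp1 was at 163, 190 and 187 normalised counts in KOL libraries, 64.7% of WTL, also without overlap (log2 −0.62 ± 0.18, edgeR adjusted p = 0.012). The fall of Iigp1 rested on WTL replicate 1, without which it was −0.36 with an edgeR adjusted p of 0.056, and without KOL replicate 1 it was −0.55, within the fold cutoff.

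The other 4 members did not reach a fold of 1.5. Irgm1 was at 8602, 9965 and 8763 normalised counts in KOL libraries, all below WTL, and was 1.29-fold lower (log2 −0.37 ± 0.08, edgeR adjusted p = 0.002). Igtp was at 2141, 2401 and 2336 and was 1.32-fold lower (log2 −0.41 ± 0.09, edgeR adjusted p = 0.002). Tgtp2 was at 2086, 2831 and 2174 normalised counts and was 1.46-fold lower (log2 −0.54 ± 0.13, edgeR adjusted p = 0.0032), KOL replicate 2 being the highest. Without that library the difference of Tgtp2 was −0.69 (edgeR adjusted p = 0.00019), which passed, as it did without WTL replicate 2 (−0.63) or WTL replicate 3 (−0.62). Tgtp1 was at 2243, 2438 and 2206 normalised counts, overlapped the WTL libraries and differed by −0.09 ± 0.13 on the log2 scale (edgeR adjusted p = 0.58). The estimated split between the copies shifted at the same time. Tgtp1 held 38.3% to 44.0% of the reads of the pair in WTL and 46.3% to 51.8% in KOL libraries, and the pair as 1 gene was −0.34 ± 0.10 (edgeR adjusted p = 0.015).

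LPS also raised all 6 members in CTCF-deleted BMDCs. At a fold cutoff of 2, 15.1% of all genes tested rose and 13.0% fell in KOL against KO. Higher genes made up 53.7% of the calls, and 30.0% on the log2(TPM + 1) scale, where the median of all genes was lower by 0.43. The median log2 fold change of the members was 4.54 and that of all genes −0.02. Irgm1 rose 14.2-fold, Irgm2 14-fold, Igtp 18-fold, Iigp1 30-fold and Tgtp2 47.7-fold, with edgeR adjusted p values of 1.7e-13 to 2.7e-09. Tgtp1 rose by 9.35 ± 0.25 on the log2 scale (edgeR adjusted p = 3.4e-13), from the few reads described above. For the pair as 1 gene the rise was 6.46 ± 0.14 (edgeR adjusted p = 7.1e-14).

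The LPS response was larger in KO than in WT BMDCs for 3 members, as tested by the interaction term, for which 8.70% of all genes were higher and 8.75% lower with no fold cutoff (higher genes being 49.9% of the calls, and 60.1% on the log2(TPM + 1) scale). The difference in log2 fold change was 0.44 ± 0.12 for Irgm1 (edgeR adjusted p = 0.02), 2.67 ± 0.45 for Tgtp1 (adjusted p = 0.0011) and 0.91 ± 0.23 for Tgtp2 (adjusted p = 0.014). The pair as 1 gene gave 1.25 ± 0.18 (edgeR adjusted p = 0.00035). For Igtp the difference was 0.40 ± 0.14, for Irgm2 0.29 ± 0.12 and for Iigp1 −0.11 ± 0.58, with edgeR adjusted p values of 0.069, 0.11 and 0.93. The median was 0.42 over the members and −0.02 over all genes. Without WTL replicate 1 the interaction was called for 5 members, Irgm2 and Igtp being added. The call of Irgm1 was lost without KO replicate 2, KO replicate 3 or WTL replicate 2 (edgeR adjusted p = 0.057, 0.06 and 0.056). That of Tgtp2 was lost on the log2(TPM + 1) scale, where limma gave 0.07 ± 0.24 (adjusted p = 0.89). TPM divides by the effective lengths given above. On log2(TPM + 0.1) limma gave LPS responses of Tgtp2 of 4.14 ± 0.19 in WT and 4.35 ± 0.19 in KO BMDCs.

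**Figure D2:**
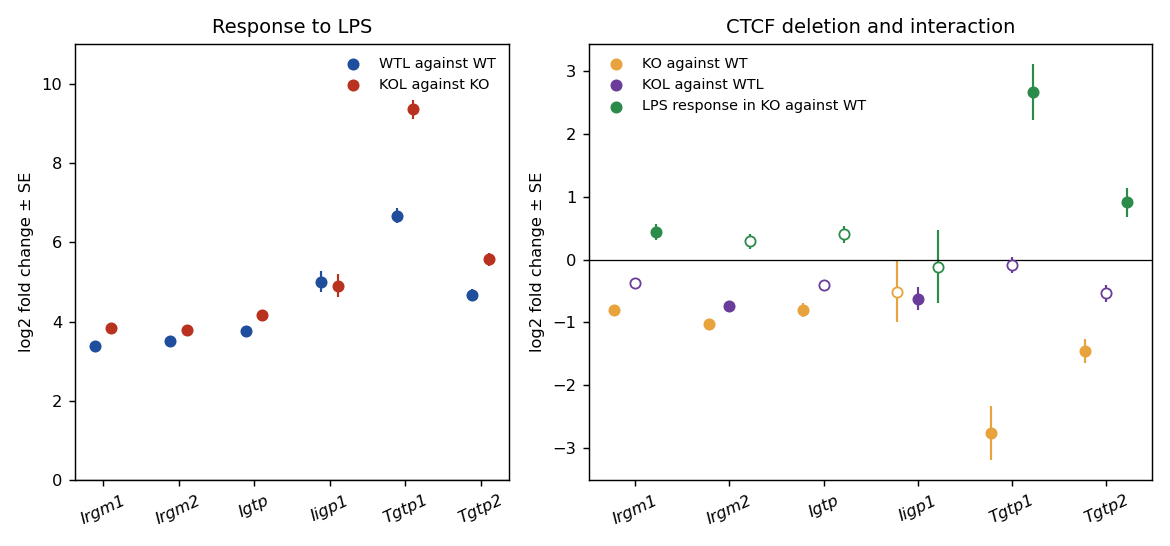
Log2 fold change of each member with its SE, for the response to LPS in each genotype (left) and for KO against WT, KOL against WTL and the interaction (right), from fits with 3 replicates per group. Filled points passed the adjusted p threshold and the fold cutoff and open points did not. The responses lie between 3.39 and 9.35, and on counts the differences in KO against WT are largest for Tgtp1 (−2.77) and Tgtp2 (−1.45), whereas in KOL against WTL they are largest for Irgm2 (−0.74) and Iigp1 (−0.62).

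The cell type named by the labels was checked against markers. The dendritic cell list of 8 genes was led by Cd74 in every group. It summed to 96135 to 100851 normalised counts in WT and 91922 to 93616 in KO libraries. With LPS the sum was 133366 to 174749 in WTL and 155725 to 208480 in KOL libraries. Of this list Itgax (CD11c, on which the cells were selected) was higher in KO, and H2-Ab1, Flt3 and Ccr7 were lower. The 7 neutrophil genes summed to 1103 to 1194 in WT and 580 to 665 in KO libraries, and to 1597 to 1875 in WTL and 1185 to 1398 in KOL libraries. This sum, led by S100a8 and S100a9, moved the same way as the members, but not every gene did so after LPS. All 5 tested fell in KO against WT (median log2 −1.68), where 17.2% of all genes fell. In KOL against WTL 4 of the 5 tested fell (12.5% of all genes fell) and S100a8 did not (log2 0.00). Ly6g, not tested, was at 1.35 to 3.25 normalised counts in WTL and 10.7 to 19.9 in KOL libraries. The 3 macrophage genes summed to 15648 to 16918 in WT and 24484 to 25336 in KO libraries, with Csf1r higher and Adgre1 and Mertk lower. Markers of T cells summed to at most 8.60, of B cells to at most 25.5, of mast cells or basophils to at most 9.57, and of erythroid cells to at most 1.35 normalised counts. NK cell markers summed to 11.7 to 49.6, nearly all Klrb1c. The part of any other cell type in the member values was not tested.

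Further genes of the family moved in part with the members. Of 11 listed relatives, 10 were tested, 8 rose and none fell in WTL, and 3 fell and 2 rose in KO against WT. By the same rules 12.6% of all genes rose and 9.99% fell in WTL, and 17.2% fell and 17.3% rose in KO. The medians were 2.60 and −0.17, against −0.02 and −0.01 for all genes. Ifi47, a GTPase on the opposite strand beside Tgtp2, was at 480, 474 and 502 normalised counts in WT, 196, 186 and 176 in KO, 7942, 7992 and 8201 in WTL, and 5814, 5761 and 5960 in KOL libraries. No groups of Ifi47 overlapped. It fell 2.61-fold in KO against WT (log2 −1.38 ± 0.07, edgeR adjusted p = 1.2e-09) and its LPS response was larger in KO by 0.92 ± 0.09 (edgeR adjusted p = 1.5e-05). Gm12250, annotated as a processed pseudogene next to Igtp, was at 80.8 to 118 normalised counts in WT and 42.6 to 50.9 in KO libraries, with a log2 change of −1.19 ± 0.19 (edgeR adjusted p = 0.00013). Gm12185, which overlaps Tgtp1 and shares sequence with it, changed by −0.72 ± 0.21 (edgeR adjusted p = 0.013).

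Other relatives went against this pattern. Irgq and Irgc1, which are not known as interferon-induced, did not rise with LPS in WT and rose in KO, by 0.84 ± 0.10 and 0.65 ± 0.20 on the log2 scale (edgeR adjusted p = 8.7e-06 and 0.016). Gm5431, Gm4951 and F830016B08Rik rose with LPS and had log2 values of −0.22, −0.13 and −0.41 in KO against WT, none past the threshold (edgeR adjusted p = 0.38 to 0.85). The copies 9930111J21Rik1 and 9930111J21Rik2 varied widely among LPS-treated replicates. The first was at 2214, 1317 and 847 normalised counts in WTL and 744, 2299 and 715 in KOL libraries, its highest values being in the same libraries, WTL replicate 1 and KOL replicate 2, that stood apart in general.

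Genes of the interferon pathway that switches the family on were listed by role, 15 of 17 being tested. In WTL against WT 9 rose and 1 fell, with a median of 1.36. In KO against WT 6 fell and 2 rose, with a median of −0.13. In KOL against WTL 4 fell and none rose, with a median of −0.20. Of all genes, 12.6% rose and 9.99% fell in WTL, 17.2% fell and 17.3% rose in KO, and 12.5% fell in KOL against WTL. Among the ligands, Ifng had at most 2.14 normalised counts in any library and Ifna4 at most 8.51, and neither was tested. Ifnb1, for interferon-β, was at 1.84, 3.35 and 4.32 normalised counts in WT and at 0 in all 3 KO libraries, with both groups about the level of 3 reads per library, so that no fold is given although the fit called it lower. After LPS it was at 136, 148 and 162 in WTL and 117, 91.3 and 145 in KOL libraries, which differed by −0.33 ± 0.18 (edgeR adjusted p = 0.15). Against a floor of 3 reads per library the KOL level was at least 42.4-fold higher than in KO.

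Of the 7 receptor and kinase genes, 2 rose and 1 fell in KO against WT, where 17.3% of all genes rose and 17.2% fell. Ifnar1 and Ifngr2, a subunit each of the type I and type II receptors, rose in KO by 0.65 ± 0.12 and 0.42 ± 0.08 on the log2 scale (edgeR adjusted p = 0.00057 and 0.001). The partner subunits Ifnar2 and Ifngr1 had log2 values of −0.11 and −0.13 and did not pass. Of the receptor kinases Jak2 fell in KO, from 5376 to 5946 normalised counts in WT to 3926 to 4128 (log2 −0.50 ± 0.11, edgeR adjusted p = 0.0025). Jak1 and Tyk2 had log2 values of −0.07 and −0.13.

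Of the 4 transcription factors given here, 3 fell in KO against WT, where 17.2% of all genes fell. Irf1 was at 1639, 1771 and 1534 normalised counts in WT and 658, 689 and 633 in KO libraries, 2.5-fold lower (log2 −1.32 ± 0.08, edgeR adjusted p = 1.1e-08). Stat2 was at 1962, 1991 and 1970 in WT and 942, 898 and 907 in KO libraries (log2 −1.11 ± 0.07, edgeR adjusted p = 1.9e-08). Irf9 fell by 0.92 on the log2 scale (edgeR adjusted p = 5e-08). For none of these 3 factors did KO and WT libraries overlap. Irf8, a factor of dendritic cell development that also acts with Irf1, had a log2 value of −0.15 in KO against WT (edgeR adjusted p = 0.29) but fell 2.13-fold in KOL against WTL (log2 −1.09 ± 0.11, edgeR adjusted p = 1.5e-06). In KOL against WTL Irf1 fell by 0.92 (edgeR adjusted p = 3.2e-07), whereas Stat2 (−0.35) and Irf9 (−0.08) did not reach a fold of 1.5. Like Irgm1 and the Tgtp genes, Stat2, Irf9 and Irf1 had a larger LPS response in KO, by 0.76, 0.84 and 0.40 (edgeR adjusted p = 0.00014, 3.5e-05 and 0.024). Irf8 had a smaller one (−0.94 ± 0.15, edgeR adjusted p = 0.00075). Over the 15 tested genes of the pathway the interaction was higher for 7 and lower for 4, with a median of −0.03. The 7 include Ifnb1, which was at 0 in every KO library. With Ifnb1 put at the floor of 3 reads in KO, its difference was −0.15 and the median −0.04. Over all genes it was higher for 8.70% and lower for 8.75%.

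Of the inhibitors, Usp18, which blocks the type I receptor, fell in KO by 1.00 ± 0.09 (edgeR adjusted p = 5.3e-07) and differed by −0.12 ± 0.08 after LPS. Socs3 had a log2 value of 0.35 in KO against WT, short of the fold cutoff, and fell by 0.76 ± 0.06 in KOL against WTL (edgeR adjusted p = 3.5e-07). Socs1 did not pass in either comparison.

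**Figure D3:**
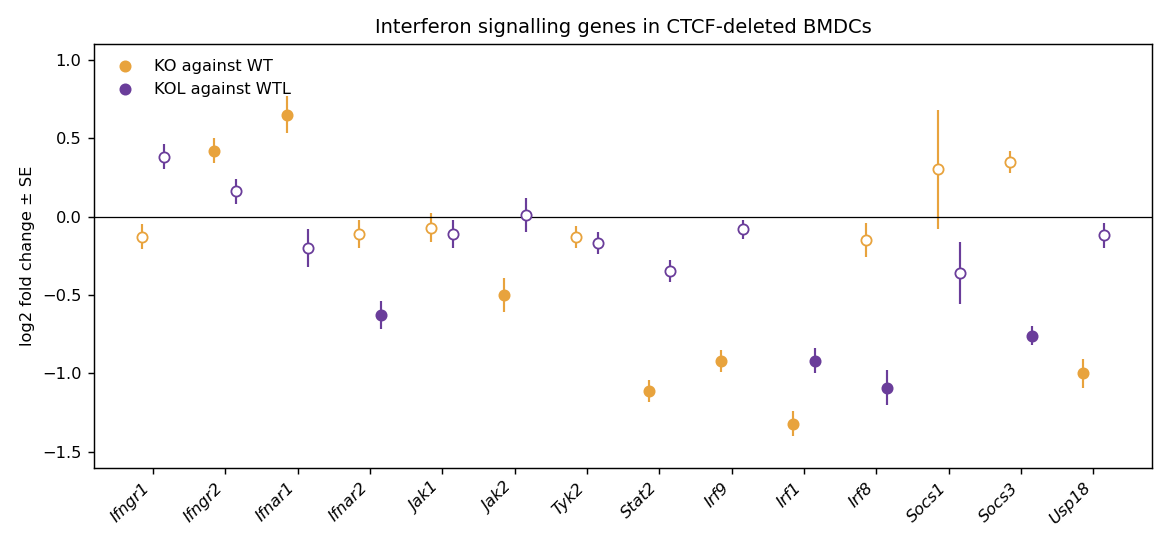
Log2 fold change with SE of 14 interferon signalling genes, ordered from receptors through kinases and factors to inhibitors, in KO against WT and KOL against WTL (3 replicates per group). Filled points passed the adjusted p threshold and the fold cutoff. Stat2, Irf9, Irf1 and Usp18 are lower in KO, and after LPS Irf1 and Irf8 are the lowest of the factors. Ifnb1 is left out because it was at 0 in every KO library.

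Regulatory members keep effector members off membranes that belong to the cell, and ubiquitin-like proteins of the autophagy machinery (LC3 and GABARAP) mark the membranes to which both are steered. All 14 listed genes of this machinery were tested. In WTL against WT 1 rose, Sqstm1, and none fell, with a median of 0.12 and a range of −0.90 to 1.09. In KO against WT 3 rose and 2 fell, with a median of 0.08, shares near the 17.3% and 17.2% of all genes. Atg3, the enzyme that joins LC3 and GABARAP to lipid, was at 973, 1012 and 1002 normalised counts in WT and 4511, 4365 and 4502 in KO libraries. It rose 4.48-fold (log2 2.16 ± 0.08, edgeR adjusted p = 7.5e-11), and in KOL against WTL 3.03-fold (log2 1.60 ± 0.08, edgeR adjusted p = 2e-09). Gabarapl1 was at 3231, 3226 and 3261 in WT and 8088, 8088 and 7819 in KO libraries, and rose 2.47-fold (edgeR adjusted p = 1.3e-09). Atg5, part of the same conjugation system, rose 1.88-fold (log2 0.91 ± 0.08, edgeR adjusted p = 2.2e-07). These 3 genes moved opposite to the members in KO. Gabarapl2 and Traf6 fell, by 0.51 and 0.50 on the log2 scale (edgeR adjusted p = 0.00036 and 6.5e-05).

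The guanylate-binding proteins, larger interferon-inducible GTPases that are recruited to the same vacuoles, were listed as 11 genes, of which 10 were tested. All 10 rose with LPS in WT, with log2 values from 1.04 to 5.04. In KO against WT 3 rose and 2 fell, from −1.11 to 1.15, with a median of −0.04. In KOL against WTL 1 rose and 4 fell, from −1.21 to 0.80. The interaction was called lower for 2 of them and higher for none. Among all genes 12.6% rose in WTL, 17.3% rose and 17.2% fell in KO, and 12.5% rose and 12.5% fell in KOL against WTL. The interaction was lower for 8.75% of all genes.

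Iigp1 lies apart from the other members, at chr18:60376027-60392634 on the plus strand. Genes close to the members were examined, since all the others sit in 2 groups on chromosome 11. Within 200 kb of a member 31 other genes were tested. In WTL against WT 13 of them rose and 2 fell, where 12.6% of all genes rose and 9.99% fell. In KO against WT 5 fell and none rose, with a median of −0.18, the share that fell being near the 17.2% of all genes. Leaving out the listed relatives, 23 neighbours remained, of which 5 rose and 2 fell with LPS and 2 fell in KO. Those were Zfp62, 139.1 kb from Tgtp2 (log2 −0.44 ± 0.12, edgeR adjusted p = 0.0085), and Smim3, 81.6 kb from Iigp1 (−0.51 ± 0.11, adjusted p = 0.0017). By the same rule 12.5% of all genes rose in KOL against WTL. There 2 of the neighbours rose, Trim7, 9.8 kb from Irgm1 (1.48 ± 0.14, edgeR adjusted p = 1.3e-06), and Gm16170, antisense to it (1.82 ± 0.27, edgeR adjusted p = 7e-05). In WTL against WT both fell (log2 −2.46 and −3.48), opposite to the members, and without strand their reads cannot be told apart. Other neighbours, such as Rack1, 55.5 kb from Irgm1 (−0.12 ± 0.08), and Mrpl22, upstream of Igtp (0.22 ± 0.12), did not pass in KO against WT (edgeR adjusted p = 0.27 and 0.13). Olfr56, an olfactory receptor gene, rose by 4.52 with LPS in WT. It overlaps the Tgtp genes on the opposite strand, so that without strand its reads cannot be told apart from theirs. With Ifi47 it overlaps on the same strand, where strand would not separate them.

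**Figure D4:**
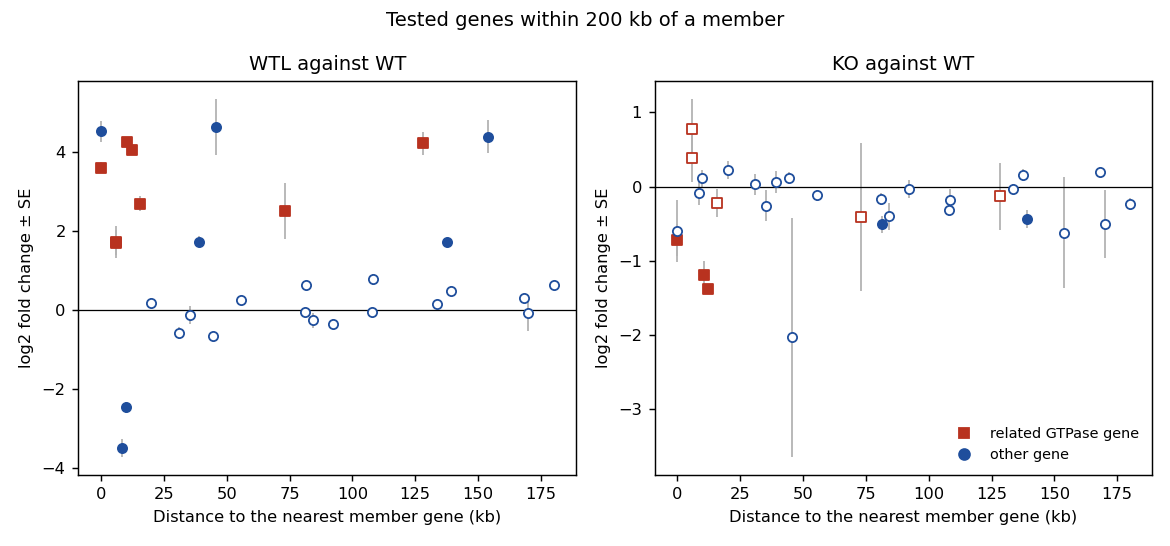
Log2 fold change with SE of the 31 tested genes within 200 kb of a member against their distance (kb) from it, for WTL against WT (left) and KO against WT (right). Squares are related GTPase genes, circles other genes, and filled symbols passed the threshold. Several related genes near the members rose with LPS, and most other neighbours lie near 0 in KO.

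The genes whose pattern over the 12 libraries was most like the mean profile of the members were sought among 10634 others with at least 50 normalised counts on average. As a description without a test, the 10 highest Pearson correlations were 0.998 to 0.999, in libraries that share the large LPS difference. In order they belonged to Mndal, Ifi211, Sp100, Zbp1, Gbp4, Dusp16, Gm12250, Cd40, Ifi209 and Ddx58. Mndal, Ifi211 and Ifi209 are genes of the interferon-inducible p200 family, Zbp1 and Ddx58 encode sensors of nucleic acids, and Cd40 is a costimulatory receptor. Their log2 fold changes in KO against WT ran from −1.22 for Ifi211 to −0.43 for Dusp16, and in WTL against WT from 1.44 for Dusp16 to 4.67 for Ifi211. The members themselves correlated with their mean profile at 0.987 (Tgtp1) to 0.999 (Irgm1 and Tgtp2).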

How the data were processed

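Reads were trimmed by the authors with Trim Galore and aligned to mm10 with STAR (version 2.5.1 per the labels), and the authors deposited RSEM expected counts, estimated per gene and often fractional. TPM values and effective lengths from RSEM were deposited beside them, and TPM keeps no depth. RSEM divides reads that match several genes by estimation, which bears on the Tgtp pair. The labels name ribosomal RNA depletion and the paper's methods a stranded poly(A) kit, and whether strand was used in counting was not given in the sources used here. The paper's methods call the 3 libraries of each group biological replicates without saying which animals they came from, so p-values measure the spread between these cultures.

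Expected counts were rounded and normalised by TMM in edgeR 4.0.16 (R 4.3.3). After filterByExpr with the groups given, 1 quasi-likelihood fit was made of all 12 libraries without covariates, with Benjamini-Hochberg adjustment over all genes and the fold cutoffs of the study where it states one. Normalised counts are scaled to the mean effective library size. Errors given with edgeR are approximate SEs, the absolute log2 fold change divided by the square root of the F statistic of its test. Those given with limma are its moderated SEs. Intervals and floors cover counting error only. Alternatives used DESeq2 1.42.0 and limma 3.58.1. The scripts were tested on simulated data. Gene positions are from GENCODE M21, promoter sequences from RefSeq (GRCm38.p6). Protein sequences were not used here. Beside the 17 interferon pathway genes given, 1 more that was listed is not reported here and is left out of the counts. The members and gene lists were chosen with earlier results of these data known, the named genes being the members, the listed genes, called neighbours and the 10 most alike genes, and the neighbours Rack1, Mrpl22 and Olfr56 were chosen after their values were seen.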

Additional observations from a re-analysis of the deposited data

Results flagged for a closer look

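The LPS response differed between KO and WT BMDCs for 3 of the 6 members by the test of the interaction itself. Its log2 value was 0.44 for Irgm1, 2.67 for Tgtp1 and 0.91 for Tgtp2, each higher in KO (edgeR's quasi-likelihood test, adjusted p = 0.02, 0.0011 and 0.014). All 3 had lower unstimulated levels in KO, and the values of Tgtp1 and Tgtp2 depend on how reads were divided between these copies. The call of Tgtp2 was lost on the log2(TPM + 1) scale.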

How the results depend on the processing

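Counts of members called in WTL against WT, KOL against KO and KO against WT stayed within 1.5 times under every alternative run. In KOL against WTL, where 2 members were lower, 1 was lower with at least 10 counts required in every library, 1 with limma on log2(TPM + 1) or log2(TPM + 0.1), 1 without WTL replicate 1 and KOL replicate 2 together (chosen after seeing the data, as was summing Irgm2 with Igtp or all 6 members), 5 with no fold cutoff and 0 with edgeR's glmTreat, in which 1 had an unadjusted p below 0.05, while DESeq2 called 2. Leaving out 1 library at a time gave 1 to 3. The interaction was called higher for 3 members, for 2 to 5 leaving out 1 library at a time, and for 5 without those 2 libraries together. The interaction of Iigp1 was −0.11 and lay between −0.35 and 0.25 leaving out 1 library, and it was 0.12 without those 2. The cause was not tested, except that the filter of 10 counts removes Iigp1 and Tgtp1 from the fit.

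Single fold changes of members kept direction and call in 504 of 529 repeats. With the 6 members summed, the log2 change was 3.74 in WTL against WT, −0.90 in KO against WT, −0.43 in KOL against WTL and 0.48 in the interaction. TMM and DESeq2 size factors differed by at most 0.02 in the median of all genes, whereas TPM lowered it by 0.43 to 0.53 in the LPS comparisons. Same-numbered libraries correlated at −0.286 to 0.112 in their deviations from the group means. With 3 libraries per group, and WTL replicate 1 and KOL replicate 2 standing apart, this cannot show whether equal numbers shared an animal. The replicate block left every count of members as it was, at 6 for LPS in either genotype, 5 for KO against WT, 2 for KOL against WTL and 3 for the interaction. It changed no call. Depth limits Iigp1 and Tgtp1 without LPS, at no more than 34.8 reads in any library.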
